A study of Capra hircus with 3 samples.

Results

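The creatine kinases and the enzymes that interconvert and remove adenine nucleotides were followed in goat muscle as a group of 7 genes. They are the muscle creatine kinase CKM, the sarcomeric mitochondrial creatine kinase CKMT2, the brain-type creatine kinase CKB, the adenylate kinase AK1, the AMP deaminases AMPD1 and AMPD3, and the muscle adenylosuccinate synthase ADSSL1. The members were chosen by product name, and the rule used no measured value, although earlier results of these data were known at that point. Product text and gene number placed 6 of the 7 in the table of 24689 entries. CKB was not analysed here.

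A contracting fibre uses ATP faster than respiration can replace it at once, and creatine kinase refills the pool by moving a phosphate from phosphocreatine to ADP. The mitochondrial enzyme works in the other direction, charging creatine with ATP that has just been exported from the matrix, so that phosphocreatine links the mitochondria to the myofibrils. Adenylate kinase makes ATP and AMP out of a pair of ADP molecules, AMP deaminase turns AMP into IMP, and adenylosuccinate synthase with adenylosuccinate lyase (ADSL) turns IMP back into AMP, which closes the purine nucleotide cycle.

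RNA of the longissimus dorsi, the long muscle of the back, was sequenced in goats at 3 growth stages. The kid library came from an age of 2 months, the youth library from 9 months and the adult library from 24 months. Each stage had 1 library. The sources used here do not state genotype, breed, sex, diet or the number of animals behind a library. Since a stage is a single library, the stages cannot be tested against each other and no difference has a replicate check, so age and the individual library cannot be told apart. The levels are FPKM, in which the fragments of a gene are divided by its length and by the total mapped in the library. Whole reads were recovered from the FPKM steps, and each ratio between libraries carries a 95% interval from those reads that covers counting error only.

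The totals behind the FPKM were 15829474 in kid, 14920689 in youth and 18399385 in adult. A gene of 1 kb with a single read stood at 0.0632, 0.0670 and 0.0543 FPKM in that order. The tissue label was checked against the fast and slow fibre lists, whose summed levels were 32195 and 19046 FPKM in kid, 31508 and 17625 FPKM in youth, and 32142 and 19271 FPKM in adult. The protocol label names mammary tissue, yet each of the 3 libraries listed the milk protein genes CSN1S1, CSN2, CSN3 and LALBA at 0. Those genes mark a gland in milk, so this check cannot speak to mammary tissue that is not in milk. The slow myosin MYH7 was not matched by name and was not analysed here.

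The 6 measured genes together held 3.02% of the kid library's FPKM, 4.05% of the youth library's and 3.88% of the adult library's. Nearly all of this was CKM, and without it the other 5 summed to 1763 FPKM in kid, 2048 FPKM in youth and 2125 FPKM in adult. In each of the 3 libraries CKM was highest and AMPD3 lowest, with ADSSL1 next above it. CKMT2, AK1 and AMPD1 lay between them and changed places. In adult CKMT2 was the highest of these 3 and AMPD1 the lowest, whereas in youth AK1 was highest and CKMT2 lowest.

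**Figure D1:**
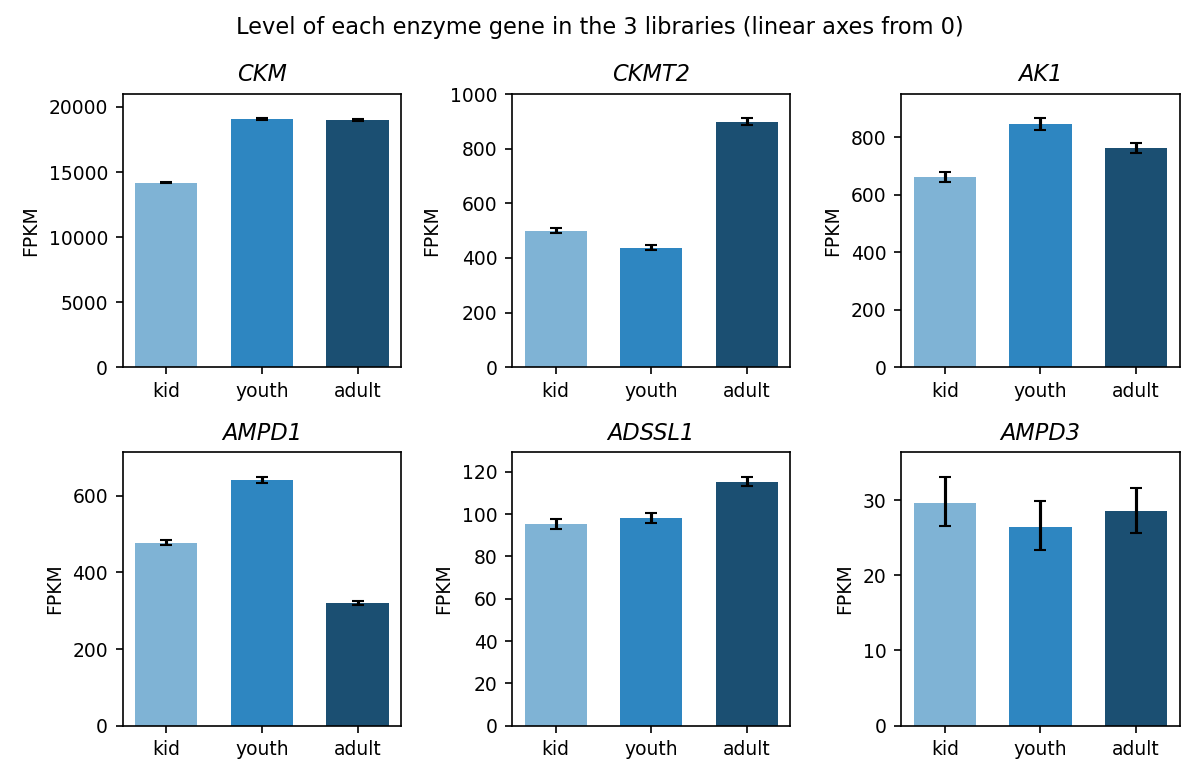
Level of each measured enzyme gene in FPKM (linear axes from 0) in the kid, youth and adult libraries, with bars for 1 library each and error lines for the 95% counting interval. CKMT2 stood highest in adult at 899.7 FPKM, AMPD1 stood lowest in adult at 320.1 FPKM, and the 3 AMPD3 intervals overlapped.

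CKM (gene 102170262) encodes the cytosolic muscle subunit, which also sits at the M-band of the sarcomere. It stood at 14183 FPKM from 364368 reads in kid, 19069 FPKM from 461787 reads in youth and 18998 FPKM from 567331 reads in adult. The kid library was the low one, and youth and adult were alike. CKM ranked 3rd of all entries in kid, 1st in youth and 2nd in adult. The ratio of youth to kid was 1.34 (1.34 to 1.35), and that of adult to kid was also 1.34 (1.33 to 1.35). The ratio of adult to youth was 0.996 with an interval of 0.992 to 1.0002, which includes 1. The size of the CKM differences depended on the scaling. Its difference between adult and kid was 0.42 on the log2(FPKM + 1) scale. Under the alternatives it ran from 0.04, after quantile normalization, to 0.56, without a change of sign. Quantile normalization gives each gene the mean level of its rank, so for CKM it returns little more than its place among the top 3. The difference of adult minus youth was -0.005, and its sign turned under a median-of-ratios scaling, where it was 0.03.

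CKMT2 (gene 102171870), the sarcomeric enzyme of the mitochondrial intermembrane space, departed from CKM. Its level was 500.1 FPKM from 10821 reads in kid, 438 FPKM from 8936 reads in youth and 899.7 FPKM from 22628 reads in adult. The adult library was the high one and youth the lowest. The ratio of adult to youth was 2.05 (2.00 to 2.10) and that of adult to kid was 1.80 (1.76 to 1.84). Between youth and kid the ratio was 0.876 (0.852 to 0.901), a 1.14-fold lower level in youth. On the log2(FPKM + 1) scale, 0.899% of the 12121 genes whose mean over the libraries reached 1 FPKM had a higher difference between adult and youth than the 1.04 of CKMT2. Between adult and kid, where CKMT2 differed by 0.85, the share was 0.875%.

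Genes of oxidative phosphorylation, a list used to mark mitochondrial content, moved with CKMT2. Of the 13 measured list members (16 named), 13 were higher in adult against youth beyond counting error, as 22.3% of all genes were, and 8 of them at 1.5-fold or more, as 5.4% of all genes were, and the median difference on the log2(FPKM + 1) scale was 0.61. In youth against kid 12 of the 13 were lower, with a median of -0.19, while 7799 of all 12121 genes were lower, with a median of -0.08. The list summed to 6128 FPKM in kid, 5309 FPKM in youth and 7915 FPKM in adult, and no member was at 0. The part of these changes in the CKMT2 result was not tested. In whole-muscle RNA, fewer cells of a type and less RNA per cell cannot be told apart.

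AK1 (gene 102169601) is the cytosolic adenylate kinase of muscle. It stood at 660.2 FPKM from 6009 reads in kid, 845 FPKM from 7250 reads in youth and 761 FPKM from 8056 reads in adult. Youth was the highest library and kid the lowest, and the 3 counting intervals did not overlap. The ratio of youth to kid was 1.28 (1.24 to 1.32), and that of adult to kid was 1.15 (1.12 to 1.19). The ratio of adult to youth was 0.901 (0.873 to 0.930). None of these reached 1.5-fold.

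AMPD1 (gene 102188819) is the muscle AMP deaminase, whose inherited deficiency in humans is linked to exercise intolerance. Its level was 478 FPKM from 18031 reads in kid, 641 FPKM from 22792 reads in youth and 320.1 FPKM from 14039 reads in adult. Youth was the high library and adult the low one, the reverse of the order seen for CKMT2. The adult level was 2.00-fold lower than the youth level (1.960 to 2.04) and 1.49-fold lower than the kid level (1.46 to 1.53). The youth level was 1.34 times the kid level (1.32 to 1.37). On the log2(FPKM + 1) scale, 1.07% of the 12121 genes had a lower difference between adult and youth than AMPD1. The difference between adult and kid, -0.58, lay just inside the 1.5-fold limit. It passed that limit when libraries were set to the same sum of FPKM, at -0.62, and after quantile normalization, at -0.60.

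The fast myosin heavy chain MYH1, of the fibre type known as IIX, was high and low in the same libraries as AMPD1, at 4693 FPKM in kid, 5942 FPKM in youth and 2636 FPKM in adult. MYH2, of fibre type IIA, stood at 3054 FPKM in kid, 2248 FPKM in youth and 3887 FPKM in adult, the order seen for CKMT2. How reads shared by near-identical myosin genes were treated is not stated, so these values are uncertain. MYH2 and MYH1 were the 1 higher and the 1 lower gene at 1.5-fold or more in adult against youth among the 7 tested of the fast fibre list, beside 5.4% of all genes higher and 5.45% lower. They were added after their values were seen, and the other 5 tested genes of that list, MYLPF, MYL1, TNNT3, ATP2A1 and ACTN3, were not apart and shared no single order. Of the slow fibre list, with 9 of 10 members in the table and all 9 tested, 2 were higher and 0 lower, beside the same shares of all genes. The part of fibre composition in the AMPD1 and CKMT2 results was not tested.

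AMPD3 (gene 102176807), the AMP deaminase known from red blood cells and also present in muscle, stood at 29.6 FPKM from 321 reads in kid, 26.5 FPKM from 270 reads in youth and 28.5 FPKM from 359 reads in adult. No library stood apart. The ratios were 0.892 (0.756 to 1.05) for youth to kid, 1.08 (0.918 to 1.27) for adult to youth and 0.962 (0.825 to 1.12) for adult to kid, and each interval includes 1. A difference was not detectable at this depth, and the intervals leave room for up to a 1.27-fold higher or a 1.32-fold lower level. The read numbers are the smallest whole ones that the FPKM allow, and any whole multiple of them would give narrower intervals. Erythroid markers, checked because of the red cell isozyme, summed to 2.92 FPKM in kid, 2.12 FPKM in youth and 3.74 FPKM in adult over 7 of 8 genes.

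ADSSL1 (gene 102185692) joins IMP to aspartate in muscle, the first step back from IMP to AMP. It stood at 95.4 FPKM from 7073 reads in kid, 98.1 FPKM from 6861 reads in youth and 115 FPKM from 9946 reads in adult. Adult was the high library, and kid and youth could not be separated by counting error. The ratio of adult to youth was 1.18 (1.14 to 1.21), that of adult to kid was 1.21 (1.17 to 1.25), and that of youth to kid was 1.03 (0.995 to 1.06). None of these reached 1.5-fold.

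A gene was counted as apart between a pair of libraries where log2(FPKM + 1) differed by 1.5-fold or more, among the 12121 genes whose mean reached 1 FPKM, which included all 6 measured members. In youth against kid 0 of 6 members were apart, beside 5.27% of all genes (1.5% higher and 3.77% lower). Adult against youth had 2 of 6 apart, beside 10.9% of all genes. CKMT2 was the higher one, as 5.4% of all genes were, and AMPD1 the lower one, as 5.45% were. Adult against kid had 1 of 6 apart, beside 9.24% of all genes. This was CKMT2, which was higher, as 2.6% of all genes were, and 6.64% of all genes were lower.

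Since all 6 members averaged over 25 FPKM, the shares among genes at that level or above were also taken, which were 3.17% in youth against kid, 11.3% in adult against youth and 8.34% in adult against kid. At the 2-fold limit CKMT2 (1.04 in log2) and AMPD1 (-0.999) lay on either side of it in adult against youth, where 2.08% of all genes were past it. AMPD1 missed it only through the pseudocount, and which of these passed changed with the settings. At the same sum of FPKM they stood at 0.97 and -1.06, without the 10 most abundant genes at 0.99 and -1.05, and after quantile normalization at 0.93 and -1.16. Youth against kid and adult against kid had 0 members beside 1.05% and 1.76% of all genes. Counts this small can be read only gene by gene. Adult against youth and youth against kid share the youth library, in which AMPD1 was highest and CKMT2 lowest, and each other pair of the comparisons shares a library too, so the 3 comparisons are not independent.

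Counting error alone separated more of the members. In youth against kid 3 of 6 were higher beyond it (CKM, AK1 and AMPD1) and 1 lower (CKMT2), beside 11.6% of all genes higher and 26.9% lower. Adult against youth had 2 higher (CKMT2 and ADSSL1) and 2 lower (AK1 and AMPD1), beside 22.3% higher and 27% lower. Adult against kid had 4 higher (CKM, CKMT2, AK1 and ADSSL1) and 1 lower (AMPD1), beside 16.7% higher and 34.6% lower. Genes with more reads pass this limit more easily.

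The members' median difference on the log2(FPKM + 1) scale was 0.20 in youth against kid, 0.05 in adult against youth and 0.24 in adult against kid. The medians over all 12121 genes were -0.08, -0.02 and -0.10 in the same order. A median-of-ratios scaling moved the all-gene median of adult against kid by 0.12, to 0.02. Set against the all-gene median of that comparison, CKM differed by 0.52, CKMT2 by 0.94, AK1 by 0.30 and ADSSL1 by 0.37. AMPD1 differed by -0.48 and AMPD3 by 0.04 on the same footing.

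**Figure D2:**
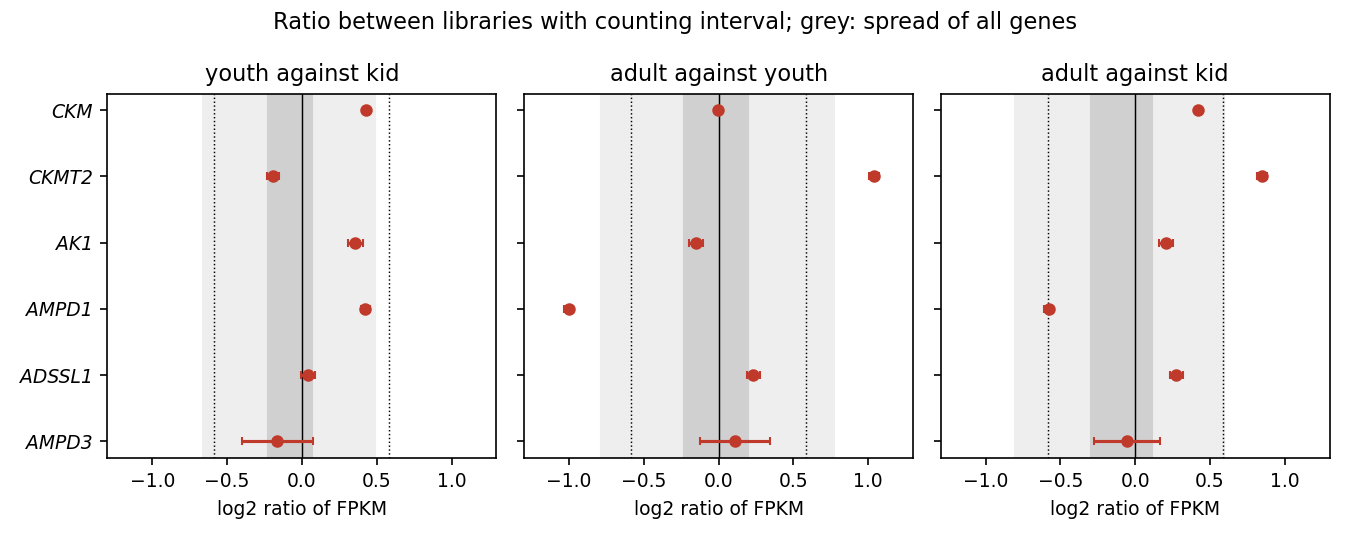
Ratio between libraries on a log2 axis for each measured enzyme gene in the 3 comparisons, later stage over earlier, with points for the ratio of FPKM and lines for the 95% counting interval. Grey bands hold the central 50% and 95% of the 12121 genes on the log2(FPKM + 1) scale and dotted lines mark 1.5-fold. In adult against youth CKMT2 and AMPD1, which differed by 1.04 and -0.999 on the log2(FPKM + 1) scale, lay outside the wider band on opposite sides.

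Shares within an enzyme family, taken on the FPKM as deposited, are not moved by a factor common to a whole library, although quantile normalization does move them. The creatine kinase total leaves out CKB, which was not analysed here. Of the FPKM of the other creatine kinases, CKM held 96.6% in kid, 97.8% in youth and 95.5% in adult, and CKMT2 held 3.41%, 2.25% and 4.52%. The ubiquitous mitochondrial form, listed as CKMT1A, had 1 read in each library. There were 28.4 CKM per CKMT2 in kid, 43.5 in youth and 21.1 in adult, each a ratio of FPKM. Adult thus had a 2.06-fold lower ratio than youth (2.01 to 2.11).

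AK3, the GTP-dependent adenylate kinase of the mitochondrial matrix, stood at 86.0 FPKM in kid, 96.8 FPKM in youth and 83.7 FPKM in adult, and was highest in youth, as AK1 was. The ratio of AK1 to AK3 was 7.68 in kid, 8.73 in youth and 9.10 in adult, and its change between adult and youth was 1.04-fold (0.987 to 1.101), an interval that includes 1. AK6 stood at 27.7, 30.1 and 30.5 FPKM and AK4 at 7.30, 8.76 and 8.47 FPKM in kid, youth and adult. None of the AK3, AK4 and AK6 differences reached 1.5-fold, and the intervals of AK4 and AK6 included 1 in all 3 comparisons.

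Among AMP deaminases, AMPD1 held 93.7% in kid, 95.7% in youth and 91.2% in adult, and AMPD3 held 5.81%, 3.95% and 8.13%. AMPD2, the form of non-muscle tissues such as liver, held 0.476%, 0.318% and 0.691%. The larger adult share of AMPD3 came with a lower AMPD1 level and an AMPD3 level that did not differ beyond counting error. ADSSL1 held 93.9%, 95.3% and 94.99% of the adenylosuccinate synthases, and the non-muscle ADSS held the rest, at 6.25 FPKM in kid, 4.86 FPKM in youth and 6.09 FPKM in adult.

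**Figure D3:**
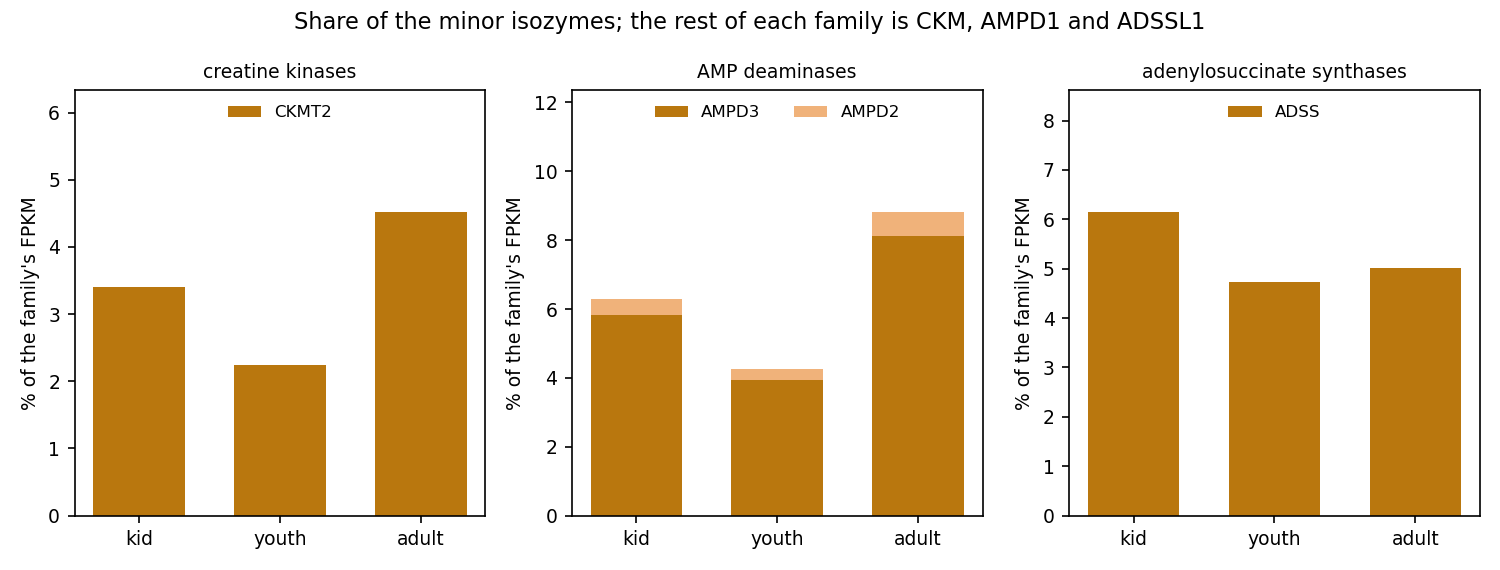
Share of each family's summed FPKM, in percent on linear axes from 0, held by the minor isozymes in the kid, youth and adult libraries, with 1 library per bar. CKMT2 reached 4.52% and AMPD3 8.13% in adult, and both shares were lowest in youth at 2.25% and 3.95%. The creatine kinase total leaves out CKB.

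Ratios between members showed which levels moved together. CKM per AMPD1 was 29.7 in kid and 29.8 in youth, and the change between these libraries was 1.003-fold (0.983 to 1.02). In adult it was 59.4, which was 1.99-fold higher than in youth (1.95 to 2.04). AMPD1 per ADSSL1, the step from AMP to IMP set against the step back, was 5.01 in kid, 6.53 in youth and 2.77 in adult. The adult ratio was 2.35-fold below the youth ratio (2.27 to 2.44). ADSSL1 per ADSL, the 2 steps of the way back, was 2.09 in kid, 2.64 in youth and 2.91 in adult. CKM per AK1 varied less, at 21.5, 22.6 and 24.9 in the same order.

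**Figure D4:**
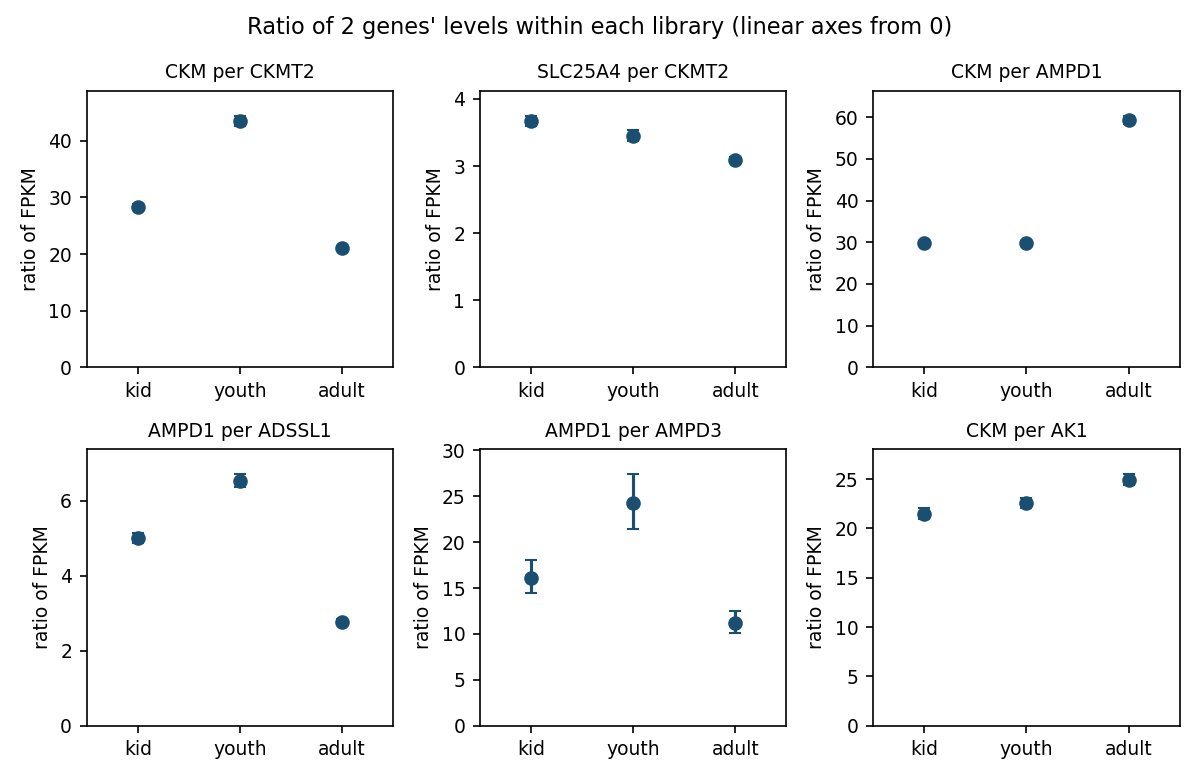
Ratio of FPKM between 2 genes within each library (linear axes from 0) in kid, youth and adult, with points for the ratio and lines for an approximate 95% counting interval. CKM per AMPD1 was 29.7 in kid, 29.8 in youth and 59.4 in adult, while SLC25A4 per CKMT2 stayed between 3.09 and 3.67.

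The genes that supply creatine were the closest neighbours in the pathway. SLC6A8, the creatine transporter of the plasma membrane, stood at 47.8 FPKM in kid, 68.5 FPKM in youth and 89.7 FPKM in adult, with an adult to kid ratio of 1.88 (1.76 to 1.998). GATM, which makes guanidinoacetate and is best known from the kidney, had 4.13, 2.30 and 1.41 FPKM in kid, youth and adult, and its adult level was 2.93-fold lower than its kid level (2.13 to 4.06). GAMT, which methylates guanidinoacetate to creatine, had 14.1, 11.1 and 18.03 FPKM. Of the 3 tested genes of this list of 5, GATM was apart and lower in youth against kid (3.77% of all genes were), and GAMT was apart and higher in adult against youth (5.4% were). In adult against kid SLC6A8 was apart and higher (2.6% were) and GATM lower (6.64% were). The same shares stand behind the counts of the lists that follow, with 1.5% of all genes higher in youth against kid and 5.45% lower in adult against youth. CKM per SLC6A8 was 297 in kid, 279 in youth and 212 in adult.

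ADP and ATP cross the inner mitochondrial membrane through the adenine nucleotide carriers, next to CKMT2. SLC25A4, the main carrier of muscle and heart, stood at 1836 FPKM in kid, 1513 FPKM in youth and 2778 FPKM in adult, the order seen for CKMT2. Its ratio of adult to youth was 1.84 (1.81 to 1.86). SLC25A4 per CKMT2 was 3.67 in kid, 3.45 in youth and 3.09 in adult. Of 10 tested genes of the exchange list, SLC25A4 and SLC25A5 were apart and higher in adult against youth (5.4% of all genes were) and in adult against kid (2.6%). SLC25A24, a calcium-dependent carrier of ATP-Mg and phosphate, was apart and lower in adult against youth (5.45%), and no gene was apart in youth against kid. SLC25A5, at 7.22, 6.57 and 11.6 FPKM, was far less abundant.

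In the list of the purine nucleotide cycle, AMP breakdown and salvage, 17 of 22 genes were tested and 0 were apart in youth against kid. Adult against youth had 1 higher (5.4% of all genes were) and 1 lower (5.45%). The higher one was NT5M, a mitochondrial deoxynucleotidase, at 13.5 FPKM in kid, 13.6 FPKM in youth and 21.1 FPKM in adult. The lower one was NT5E, the cell-surface enzyme that turns AMP into adenosine, at 2.51 FPKM in kid, 2.82 FPKM in youth and 1.43 FPKM in adult. NT5M was also the 1 gene apart and higher in adult against kid (2.6% of all genes were). ADSL, which releases AMP from adenylosuccinate, stood at 45.6, 37.2 and 39.6 FPKM in kid, youth and adult, and its youth to kid ratio was 0.817 (0.746 to 0.893). GMPR, which turns GMP into IMP, was the most abundant gene of the list at 359, 308 and 293 FPKM. Its level exceeded that of ADSSL1 in all 3 libraries.

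De novo purine synthesis, with 8 of 10 genes tested, had 0 genes apart in each of the 3 comparisons. PAICS, a bifunctional enzyme of the pathway, stood at 3.31 FPKM in kid, 4.57 FPKM in youth and 2.89 FPKM in adult. With a pseudocount of 0.1 FPKM in place of 1, PAICS passed the 1.5-fold limit as lower in adult against youth, at -0.645 in log2. IMPDH2, which draws IMP towards GMP, had the highest mean level of this list, at 45.6, 51.02 and 43.6 FPKM. In adult PRPS1 of the same list stood above it, at 44.5 FPKM.

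The AMP-activated protein kinase senses the AMP that adenylate kinase makes. Its catalytic subunit PRKAA2 stood at 16.9 FPKM in kid, 17.8 FPKM in youth and 17.1 FPKM in adult, and each of its 3 ratio intervals included 1. Among the regulatory subunits that bind AMP, PRKAG3 and PRKAG2 took opposite orders. PRKAG1, at 16.4, 16.1 and 20.5 FPKM in kid, youth and adult, had the order of PRKAG2, with kid and youth nearly alike. PRKAG3, the subunit of fast glycolytic muscle, stood at 23.3, 33.4 and 17.4 FPKM in kid, youth and adult, with an adult level 1.91-fold below that of youth (1.77 to 2.07). PRKAG2 stood at 15.4, 11.3 and 19.98 FPKM, with an adult to youth ratio of 1.78 (1.58 to 1.998). Among the 11 tested genes these were the 2 apart in adult against youth, beside 10.9% of all genes, and 0 were apart in the other comparisons. PRKAG3 thus ranked the libraries as AMPD1 did, and PRKAG2 as CKMT2 did.

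Among 15 nucleotide kinases and hydrolases, 1 gene was apart in each comparison, beside 5.27% of all genes in youth against kid, 10.9% in adult against youth and 9.24% in adult against kid. It was CMPK2, a mitochondrial kinase of UMP and CMP, in youth against kid, where its ratio was 1.77 (1.43 to 2.18). Between adult and youth it was NME4, a nucleoside diphosphate kinase of mitochondria, with a ratio of 1.71 (1.56 to 1.86). Between adult and kid it was ENPP1, an ecto-enzyme that cleaves ATP, which was 1.71-fold lower (1.501 to 1.959). Among 8 genes of the list of ATPases, ATP1B1, a beta subunit of the sodium pump, and ATP1B4 were apart and higher in adult against youth (5.4% of all genes were), with ratios of 1.81 (1.74 to 1.88) and 1.64 (1.497 to 1.796). ATP1B4 belongs to the beta subunit family by sequence, but in placental mammals its protein is known from the nuclear membrane of muscle and not as a pump subunit. ATP1B1 was also apart and higher in adult against kid (2.6%). The calcium pump ATP2A1, the most abundant of these, stood at 2491 FPKM in kid, 2878 FPKM in youth and 2588 FPKM in adult.

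Over the 8 lists a named gene was apart 20 times, counting each comparison separately, and 8 of these held under every pseudocount and scaling tried. They were PRKAG2, PRKAG3, SLC25A4, NME4, ATP1B1 and ATP1B4 in adult against youth, and SLC6A8 and ATP1B1 in adult against kid. The other 12, among them both GATM differences, both NT5M differences and SLC25A4 in adult against kid, came inside 1.5-fold under at least 1 alternative. These counts leave out differences that passed 1.5-fold only under an alternative. With a pseudocount of 0.1 FPKM, PAICS and GATM in adult against youth were among those, at -0.645 and -0.667 in log2. After median-of-ratios scaling, SLC6A8 in youth against kid was another, at 0.61.

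**Figure D5:**
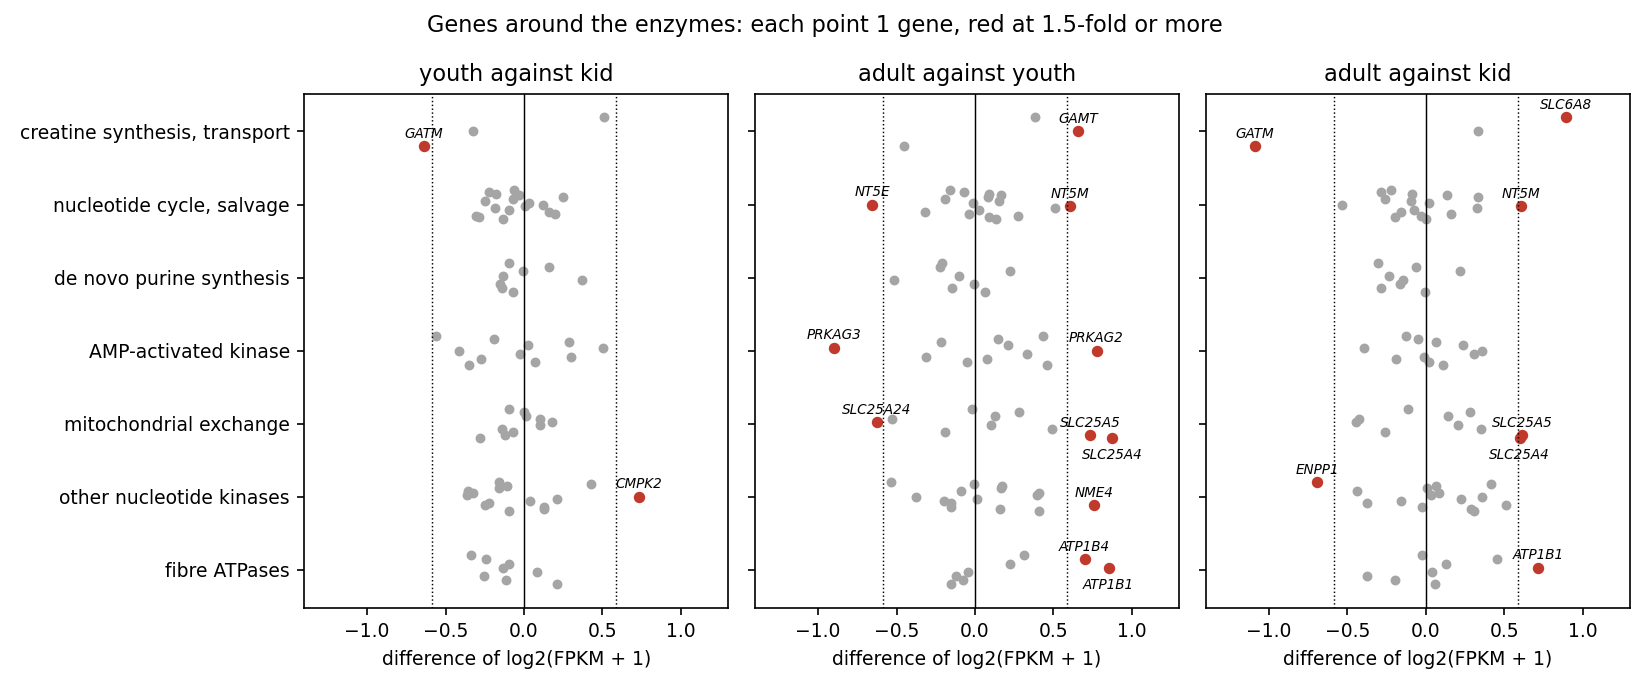
Difference of log2(FPKM + 1), later stage minus earlier, for each tested gene of 7 lists around the enzymes in the 3 comparisons, with 1 point per gene, dotted lines at 1.5-fold and red points past it. In adult against youth the red points on the right include SLC25A4, PRKAG2 and NME4 and those on the left PRKAG3, NT5E and SLC25A24.

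For each member the 3 genes with the most similar pattern were sought among 2700 named genes averaging 20 FPKM or more, by the distance of the youth minus kid and adult minus youth differences over the 3 libraries. Nearest to CKM were TMEM38B, a potassium channel of intracellular membranes, at a distance of 0.014, and then BAG3 and ASB16. Nearest to AMPD1 was CLIC4, at a distance of 0.011, followed by CREM and PHKG1, and 4 genes lay within 0.1 of it. PHKG1, the muscle catalytic subunit of phosphorylase kinase, stood at 40.2 FPKM in kid, 52.7 FPKM in youth and 27.01 FPKM in adult. CKMT2 had 0 genes within 0.1, and the nearest were MSRB1 at 0.115, NDRG2 and RBM38. NDRG2 stood at 257 FPKM in kid, 216 FPKM in youth and 412 FPKM in adult.

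The patterns of AK1, AMPD3 and ADSSL1 had more company. AK1 had 27 genes within 0.1, the nearest being SSH2, EIF4E and EEF2K. AMPD3 had 195, led by AURKAIP1, CCDC124 and C1QBP, and ADSSL1 had 113, led by ZDHHC4, CLIP4 and PTPA. With 3 libraries such a pattern has only 2 free differences, so many genes can lie close to a pattern that hardly varies.

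Markers of other cell types differed between libraries as well. The Schwann cell list summed to 242 FPKM in kid, 143 FPKM in youth and 100.4 FPKM in adult, and the adipocyte list to 360.3, 199.96 and 212 FPKM. The macrophage list summed to 61.7, 70.1 and 34.1 FPKM and the fibroblast list to 934, 1104 and 787 FPKM. The high fibroblast sum in youth came with COL1A1, at 113, 183 and 106 FPKM, and COL3A1, at 221, 379 and 192 FPKM. In youth against kid 3 of the 8 fibroblast genes were higher and 5 lower, with a median of -0.09, beside a median of -0.08 for all genes. The atrophy list, ubiquitin ligases and their regulators, summed to 537, 933 and 342 FPKM and was, like AMPD1, highest in youth and lowest in adult. Endothelial markers summed to 222, 189 and 188 FPKM and markers of smooth muscle and pericytes to 579, 451 and 596 FPKM. Satellite cell markers summed to 24.1, 20.6 and 20.3 FPKM, mostly from SPRY1, at 17.6, 14.1 and 12.8 FPKM. PAX7 of the same list was lowest in youth, at 0.901 FPKM from 20 reads, and highest in adult, at 1.97 FPKM from 54 reads. Of the 4 tested satellite cell genes, 2 were higher and 2 lower in adult against youth. PAX7 was the 1 apart, and it was higher, as 5.4% of all genes were. The part of these lists in the members' results was not tested.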

How the data were processed

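Illumina libraries of total RNA were sequenced, per the labels. What the authors deposited is a single table in FPKM whose 3 columns are the stages. The submitters' processing notes name FastQC, TopHat2 and DESeq without version. Build, annotation, strand setting and handling of shared reads are not stated there, so overlapping or antisense genes could share reads. Of 24689 entries, 21743 matched a gene table of assembly ARS1.2, used for names only, and 22 list genes were matched by product text.

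FPKM values are whole multiples of what 1 read is worth. For each gene the smallest length and reads that give whole numbers in all its libraries were taken (tolerance 5e-05); recovered reads came to between 94.9% and 96.3% of the totals. Intervals are exact conditional binomial ones for ratios between libraries, exact Poisson ones for levels, and approximate for ratios between genes. They cover counting error only. A count test was not run, since 1 library per stage leaves no spread between replicates.

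Differences used log2(FPKM + 1), which understates changes of low genes. Besides the members, the genes named are those of each list with the 3 largest differences or the highest level, a fixed set of neighbours such as SLC25A4 and ADSL, and 3 nearest patterns per member. MYH1, MYH2, COL1A1, COL3A1, SPRY1, PAX7, PRPS1 and PRKAG1 were added after their values were seen, and AK6 was also named outside these rules. Members and the 8 pathway and 12 marker lists were chosen with earlier results of these data known. Some genes of the lists are not reported here. Alternatives were pseudocounts, 4 scalings and filters on low genes. Python 3.11.15, numpy 2.4.6, pandas 2.3.3, scipy 1.17.1 and matplotlib 3.10.9 were used, and the recovery was tested on simulated data.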

Additional observations from a re-analysis of the deposited data

How the results depend on the processing

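The number of genes 1.5-fold or more apart depended on how low genes were treated. In youth against kid it was 639, and it was 1190 with a pseudocount of 0.1 FPKM, 163 with 5 FPKM, 299 among genes averaging 5 FPKM or more and 79 at 25 FPKM or more, a limit chosen after seeing the data. In adult against youth it was 1316, and under the same alternatives 1990, 503, 783 and 281. In adult against kid it was 1120, and likewise 1829, 392, 646 and 208. Scaling mainly moved the direction. In youth against kid 28.5% of the genes apart were higher as deposited, 48.2% after median-of-ratios scaling, 38.8% at the same sum of FPKM without the 10 most abundant genes and 51.3% after quantile normalization. In adult against youth 49.8% were higher as deposited and 37.8% at the same sum of FPKM. In adult against kid 28.1% were higher as deposited, 53.4% after median-of-ratios scaling and 47.8% after quantile normalization.

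The members' counts in youth against kid and in adult against youth were the same under every alternative run. In adult against kid the count was 1 as deposited and 2 both at the same sum of FPKM and after quantile normalization, where AMPD1 joined as lower. CKMT2 differed between adult and youth by 0.93 to 1.07 on the log2 scale and AMPD1 by -1.16 to -0.96. The sign of AMPD3 in adult against kid turned under median-of-ratios scaling. Of 702 values of single genes, 610 stayed within the limit set for calling them unchanged, 92 moved and 0 reversed a called direction. That limit was the half-width of the gene's own counting interval, which is wide for genes with few reads. The 610 therefore do not measure how stable such genes were. GATM in youth against kid went from -0.64 to -0.32 with a pseudocount of 5 FPKM and still counted as unchanged. No paired analysis was possible because each stage had 1 library, and for the same reason no replicate could be left out. Depth limited AMPD3 most, and genes near 1 FPKM.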
